A study of Mus musculus with 23 samples.

Results

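The genes described here secrete chloride and bicarbonate alongside Cftr, or carry the potassium current that drives this secretion. The 9 genes listed were Ano1, Slc26a4, Slc26a9, Clcn2, Slc12a2, Slc4a4, Car2, Kcnn4 and Kcnq1. They were found by symbol, as the probe sets that the array's annotation assigns to that symbol alone. This gave 16 probe sets of 8 genes, out of 18193 genes with such a probe set, and Slc26a9 was not analysed here. Lungs of CF-/- mice, called CF here, were set against lungs of CF+/+ mice, called control, in BALB/c (BALB) and C57BL/6 (B6) mice of both sexes. Whole right lungs gave 23 arrays: 6 BALB CF, 6 BALB control, 5 B6 CF and 6 B6 control, with 3 females and 3 males in each except the B6 CF group, which had 2 males. The labels name neither the Cftr allele nor the ages and housing of the mice, and they do not state that each array held another animal. The p-values therefore measure the spread between these arrays, which may be technical.

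Epithelia secrete chloride in steps. On the basal side of the cell, the sodium-potassium-chloride cotransporter Slc12a2 loads chloride and the sodium-bicarbonate cotransporter Slc4a4 loads bicarbonate. Carbonic anhydrase, encoded by Car2 among others, makes bicarbonate inside the cell. On the luminal side, Cftr lets both anions out, and the calcium-activated chloride channel Ano1 and the anion exchanger Slc26a4 (pendrin) offer other ways out. Potassium channels such as Kcnn4 and Kcnq1 keep the cell interior negative, which pushes the anions outward. Mice that lack Cftr are known for mild lung disease, and calcium-activated chloride secretion is prominent in mouse airways.

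Values are the deposited signals, read here as log2, and a difference of 1 is a doubling of signal. Differences are CF minus control or BALB minus B6, from 1 limma fit with a mean for each combination of strain, sex and genotype. The effect over both sexes is the mean of the female and male effects, so it can depart slightly from the difference of the group means. A call is an adjusted p (Benjamini-Hochberg over all 45037 probe sets tested) under 0.05. The shares of all probe sets or genes called are at this adjusted p. Counts at an unadjusted p under 0.05 have no such share beside them, because it was not computed. They are not to be set against the shares called. Levels of different probe sets were not read as relative amounts of RNA, because each probe set binds its target with its own strength. Signal level was used to name the brighter probe sets of a gene and to set probe sets against the median of all. In whole lung, fewer cells of a type and less RNA per cell cannot be told apart.

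The array medians lay between 4.56 and 4.64. Alveolar type 2 markers averaged 11.26 to 11.62 and club cell markers 10.91 to 11.64 in all arrays, against a median of 4.59 over all probe sets, so the arrays read as lung. Cftr itself, by its brighter probe set 1420579_s_at, averaged 3.99 ± 0.38 in BALB CF and 5.66 ± 0.18 in BALB control lungs (SD, n = 6 each), and 4.06 ± 0.22 in B6 CF (n = 5) and 4.28 ± 0.19 in B6 control lungs (n = 6). It was lower in BALB CF lungs (-1.67, limma adjusted p = 6.44e-07) and did not pass in B6 (-0.22, adjusted p = 0.43). By the dimmer probe set, 1427767_a_at, 5 of 6 BALB CF arrays lay below their control median, and 4 of 5 B6 CF arrays lay above theirs. Neither probe set therefore checks the labels of the B6 arrays. Some arrays stood apart by markers of other tissues. Squamous epithelium markers averaged 6.51 to 9.68 on 5 arrays (B6 control female 1 and male 3 and the 3 BALB CF females) and at most 4.79 on the others. Intestinal markers averaged 5 or more on 6 arrays (BALB CF female 1, BALB control females 1 and 3 and males 1 and 2, and B6 control female 1). Skeletal muscle markers averaged up to 8.18 on BALB CF arrays and up to 7.69 on B6 control arrays. They averaged at most 4.74 on BALB control and 4.43 on B6 CF arrays. No arrays were left out by their skeletal muscle markers. Leaving out the arrays high in intestinal markers took away 4 of the 6 BALB controls. BALB control values in that setting rest on female 2 and male 3 alone. Of the arrays high in squamous markers, only the 2 B6 controls were left out. The 3 BALB CF females were not left out together. Calls of the anion secretion genes that were lost or gained in these settings are given with their values below.

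Few of the anion secretion genes differed between CF and control lungs. In B6 lungs, Ano1 fell by both of its probe sets, and Kcnn4 rose by its dimmer probe set. In BALB lungs, Kcnn4 rose by the same probe set and no other gene of the set was called. In B6, 1 of the 16 probe sets was higher and 2 were lower in CF lungs, where 4.71% of all probe sets were called (2.72% higher, 1.99% lower). In BALB, 1 was higher and none lower, where 4.92% of all probe sets were called (2.6% higher, 2.33% lower). At an unadjusted limma p under 0.05 there were 8 of the 16 in BALB, and the share of all probe sets at that p was not computed. With each gene read by its brightest probe set, 1 of 8 genes was called in B6 (Ano1, lower) and 0 of 8 in BALB, with 4 and 5 genes at an unadjusted limma p under 0.05, where 5.43% and 5.53% of all genes were called. The median effect over the 8 genes was 0.04 in both B6 and BALB, against 0.01 in B6 and -0.01 in BALB over all genes.

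**Figure D1:**
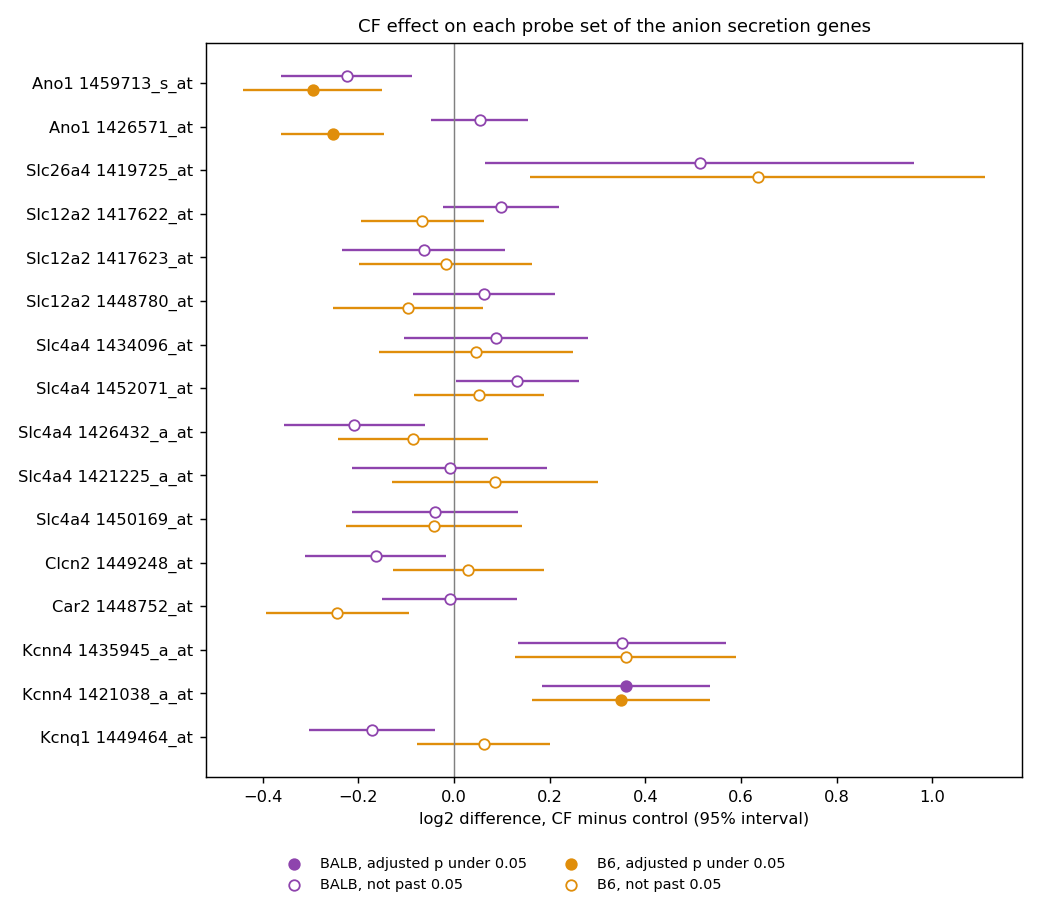
CF minus control difference of log2 signal for the 16 probe sets, with 95% intervals of the limma fit, in BALB (purple) and B6 (orange); filled symbols passed an adjusted p of 0.05. Both Ano1 probe sets lie left of 0 in B6, the dimmer Kcnn4 probe set lies right of 0 in both strains, and Slc26a4 has the widest intervals.

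Ano1 encodes the calcium-activated chloride channel of secretory epithelium, which is also expressed in smooth muscle. By its brighter probe set, 1459713_s_at, the B6 CF arrays read 7.32, 7.16 and 7.24 in females and 7.08 and 7.14 in males, against a lowest of 7.39, a median of 7.41 and a highest of 7.69 on the B6 control arrays. Every B6 CF array lay below every B6 control array. The difference was -0.30 (SE 0.07, 95% interval -0.44 to -0.15, limma adjusted p = 0.0164), which is 1.23-fold lower. The dimmer probe set, 1426571_at, read 5.95, 5.97 and 5.93 in B6 CF females and 5.85 and 5.80 in B6 CF males, against 6.04, 6.13 and 6.25 (lowest, median and highest) on B6 control arrays. These groups did not overlap either, and the difference was -0.25 (SE 0.05, interval -0.36 to -0.15, limma adjusted p = 0.00579), 1.19-fold lower. Groups without overlap and lower in CF made up 1.11% of all probe sets in B6. Leaving out B6 CF male 1 brought the adjusted p of the brighter probe set to 0.0877 at a difference of -0.28, and the dimmer one passed without any of the 11 B6 arrays in turn. In males alone neither passed (-0.29 with adjusted p = 0.111 for the brighter and -0.24 with adjusted p = 0.0655 for the dimmer). None of the 5 smooth muscle markers was called (limma, 2 in BALB and 0 in B6 at an unadjusted p under 0.05), though all 5 were at negative differences in both strains, with median differences of -0.21 in BALB and -0.12 in B6. None of the 6 club cell markers was called, with 0 at an unadjusted p under 0.05 in either strain. The mean level of the alveolar type 1 markers was lower in B6 CF lungs without overlap (10.64 to 10.75, against 10.76 to 10.84 in B6 controls), and lay at 10.49 to 10.71 in BALB CF and 10.60 to 10.78 in BALB control lungs. Of these 6 markers 0 were called in B6 (limma, 3 at an unadjusted p under 0.05), and Rtkn2 was called lower in BALB (-0.30, adjusted p = 0.0324). Of 5 endothelial markers Tek was called lower in B6 (-0.25, adjusted p = 0.0442) and 0 in BALB, with 1 at an unadjusted p under 0.05. The part of these cells in the Ano1 result was not tested.

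In BALB lungs the probe sets of Ano1 gave different answers. The brighter one read 7.14, 7.20 and 7.33 (lowest, median and highest) on BALB CF arrays, against 7.23, 7.48 and 7.59 on BALB control arrays. All 6 CF arrays lay below the control median and 4 lay below the lowest control, at a difference of -0.22 (SE 0.07, interval -0.36 to -0.09, limma adjusted p = 0.0531). Its call turned on single arrays and settings. It passed without BALB control female 2 (-0.28, adjusted p = 0.00713) or without BALB control male 3 (-0.25, adjusted p = 0.0372). At the same difference it also passed with probe sets at or above the median level only (adjusted p = 0.0342), with a variance trend (adjusted p = 0.0486) and with the brightest probe set of each gene only (adjusted p = 0.0445). It was -0.04 without the arrays high in intestinal markers, a setting that keeps only female 2 and male 3 of the BALB controls. The dimmer probe set read 6.04, 6.15 and 6.25 on BALB CF arrays, against 6.00, 6.10 and 6.19 on BALB control arrays, and these groups overlapped nearly in full. Its difference was 0.05 (SE 0.05, interval -0.05 to 0.15, adjusted p = 0.643).

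For the dimmer probe set the CF effects of the strains differed by 0.31 (BALB minus B6, SE 0.07, interval 0.16 to 0.46, limma adjusted p = 0.0238). It was the 1 probe set of 16 called in this comparison, where 2.54% of all probe sets were called. For the brighter probe set the same comparison gave 0.07 (adjusted p = 0.797), so the strain difference was seen by 1 probe set of Ano1 only. It passed without any of the 23 arrays in turn, and had an adjusted p of 0.0547 at 0.36 without the arrays high in intestinal markers and of 0.136 at 0.31 in males alone. The name ending _s_at marks a probe set whose probes match more than 1 transcript on Affymetrix arrays. Over the 23 arrays the signals of the probe sets correlated at r = 0.62 and rho = 0.62, as a description.

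The promoter of Ano1 is shown because Ano1 was the gene of the set with a call by both probe sets. The 250 bases before the RefSeq start of Ano1, on the minus strand at chr7:144738574-144738823 (GRCm38.p6), hold 72.0% G and C, and capitals mark GC boxes, searched as GGGCGG on both strands.
Ano1: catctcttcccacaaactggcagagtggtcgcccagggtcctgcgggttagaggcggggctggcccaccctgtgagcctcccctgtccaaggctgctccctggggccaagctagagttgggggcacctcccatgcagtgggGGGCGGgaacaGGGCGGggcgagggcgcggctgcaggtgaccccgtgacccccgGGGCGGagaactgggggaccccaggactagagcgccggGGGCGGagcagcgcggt
The window holds 4 GC boxes, which end 12, 50, 93 and 104 bases before the start. At least 1 GC box was found in 32.74% of 32851 promoter windows of this length. A TATA box (TATAAA) was not in this window and was found in 12.37% of all windows. Motifs for STAT6 (TTCNNNNGAA, in 5.85% of all windows), AP-1 (TGANTCA, in 6.75%) and CREB (TGACGTCA, in 1.55%) had no match on either strand in this window, nor in those of Kcnn4 and Slc26a4 below. That says only that these letters are not in these windows.

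Slc26a4 encodes pendrin, which exchanges chloride for bicarbonate at the luminal side and is induced in airway cells by cytokines of allergic inflammation. Its mean signal was higher in CF lungs of both strains, but no difference passed. The probe set 1419725_at read 5.29, 4.65 and 5.16 in BALB CF females and 4.70, 4.42 and 4.34 in BALB CF males, against 3.95, 4.30 and 4.44 (lowest, median and highest) on BALB control arrays. It read 5.10, 4.64 and 6.63 in B6 CF females and 4.69 and 4.82 in B6 CF males, against 4.21, 4.39 and 4.83 on B6 control arrays. The groups overlapped in both strains, and B6 CF female 3, at 6.63, stood far above every other array. The difference was 0.51 in BALB (SE 0.22, interval 0.07 to 0.96, 1.43-fold, limma adjusted p = 0.196) and 0.63 in B6 (SE 0.23, interval 0.16 to 1.11, 1.55-fold, adjusted p = 0.127). Without B6 CF female 3 the B6 difference was 0.34, and without B6 CF female 2 it was 0.84 and passed (adjusted p = 0.0218). The BALB difference passed when BALB was fitted alone (adjusted p = 0.0263). The strains' CF effects differed by -0.12 (adjusted p = 0.911). None of the 8 goblet cell markers and none of the 5 ionocyte markers was called for CF in either strain. Among the goblet cell markers, Tff2 was at 0.49 in BALB (SE 0.18, limma adjusted p = 0.140) and 0.43 in B6 (SE 0.19, limma adjusted p = 0.252). Agr2 was at -0.34 in BALB and -0.01 in B6.

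The window before the start of Slc26a4, on the minus strand at chr12:31559985-31560234 (GRCm38.p6), differs in make-up from that of Ano1, with 49.6% G and C, a TATA box (capitals) and no GC box.
Slc26a4: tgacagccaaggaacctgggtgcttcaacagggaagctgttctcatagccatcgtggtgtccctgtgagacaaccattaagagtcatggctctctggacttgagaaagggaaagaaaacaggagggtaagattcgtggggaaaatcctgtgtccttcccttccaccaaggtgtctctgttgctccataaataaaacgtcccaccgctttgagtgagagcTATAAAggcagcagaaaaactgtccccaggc
The TATA box lies 31 to 26 bases before the start.

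Clcn2 encodes a voltage-gated chloride channel found in many epithelia. Its probe set, 1449248_at, was dim, below the median of all probe sets. It averaged 3.47 ± 0.17 in BALB CF and 3.63 ± 0.10 in BALB control lungs (SD, n = 6 each), and 3.47 ± 0.08 in B6 CF (n = 5) and 3.44 ± 0.12 in B6 control lungs (n = 6). The CF effects were -0.16 in BALB (SE 0.07, limma adjusted p = 0.216) and 0.03 in B6 (adjusted p = 0.900), and the groups overlapped in both strains.

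**Figure D2:**
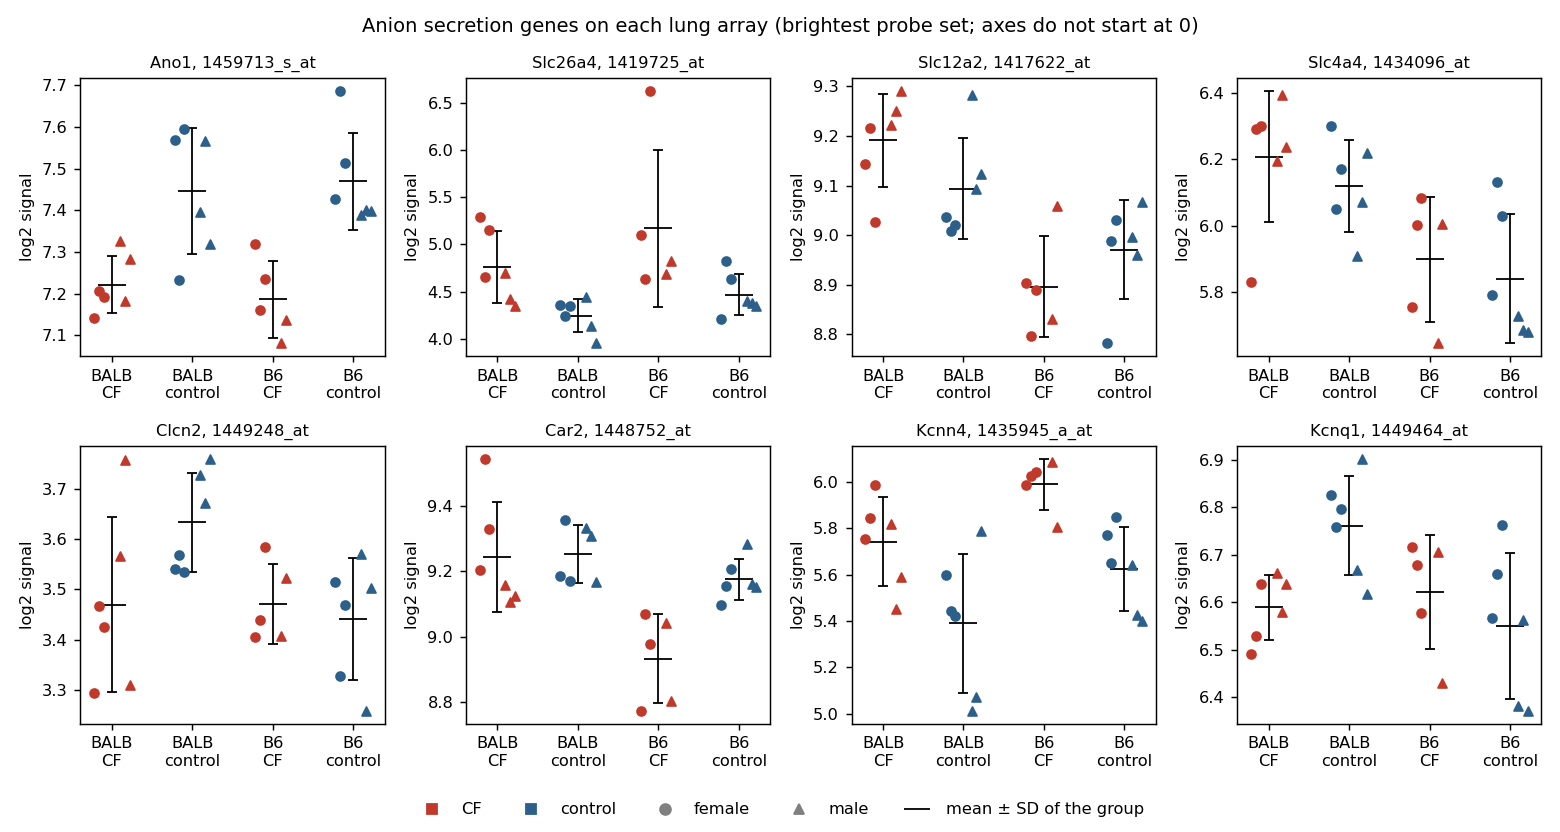
Log2 signal of the brightest probe set of each of the 8 genes on every array, in the order BALB CF, BALB control, B6 CF and B6 control, with females as circles, males as triangles and bars for the mean ± SD; the axes do not start at 0. Ano1 is lower on all B6 CF arrays than on any B6 control array, and B6 CF female 3 stands above all other arrays for Slc26a4.

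The genes that load the cell with anions were not called for CF in either strain. Slc12a2, the loading cotransporter, has 3 probe sets, whose CF effects lay at 0.10, -0.06 and 0.06 in BALB and -0.07, -0.02 and -0.10 in B6 (1417622_at, 1417623_at and 1448780_at, in this order). Slc4a4, the bicarbonate cotransporter, has 5 probe sets, and the largest effect was that of 1426432_a_at in BALB (-0.21, limma adjusted p = 0.0980). Its brightest probe set, 1434096_at, gave 0.09 in BALB and 0.05 in B6, neither of them called. All 6 BALB CF arrays of 1426432_a_at lay below the control median, and this effect passed without BALB control male 1 (-0.26, adjusted p = 0.0490) or BALB control female 2 (-0.25, adjusted p = 0.0396).

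Car2, the abundant cytosolic carbonic anhydrase, came close to the threshold in B6. Its probe set, 1448752_at, read 8.77, 9.07 and 8.98 in B6 CF females and 9.04 and 8.81 in B6 CF males, against 9.10, 9.16 and 9.28 (lowest, median and highest) on B6 control arrays. The groups did not overlap, and groups without overlap and lower in CF made up 1.11% of all probe sets in B6. The Car2 difference of -0.24 (SE 0.07, interval -0.39 to -0.09, 1.18-fold) missed the threshold (limma adjusted p = 0.0545). It passed without B6 CF female 2 (-0.28, adjusted p = 0.0443) without the arrays high in intestinal markers (-0.26, adjusted p = 0.0494) and, at -0.24 to -0.25, under 5 other settings, among them quantile normalization (adjusted p = 0.0371). In BALB, Car2 averaged 9.24 ± 0.17 in CF and 9.25 ± 0.09 in control lungs (SD, n = 6 each), a difference of -0.01 (adjusted p = 0.970). The CF effects of the strains differed by 0.23, which was not called (adjusted p = 0.239), so Car2 was not shown to respond differently in the strains.

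Kcnn4 encodes a calcium-activated potassium channel of epithelia, which T cells and macrophages also use. It rose in CF lungs of both strains by its dimmer probe set, 1421038_a_at. In BALB it read 4.98, 4.88 and 5.08 in CF females and 4.69, 4.54 and 4.78 in CF males, against 4.26, 4.45 and 4.71 (lowest, median and highest) on control arrays. In B6 it read 4.95, 5.18 and 5.29 in CF females and 4.98 and 4.81 in CF males, against 4.49, 4.67 and 4.81 on control arrays. All 6 BALB CF and all 5 B6 CF arrays lay above the median of their controls, and 4 in each strain lay above the highest control. The difference was 0.36 in BALB (SE 0.08, interval 0.18 to 0.54, 1.28-fold, limma adjusted p = 0.0154) and 0.35 in B6 (SE 0.09, interval 0.16 to 0.53, 1.27-fold, adjusted p = 0.0275). Probe sets higher in both strains made up 0.715% of all. The effects of the strains differed by 0.01, with an interval of -0.24 to 0.27 (adjusted p = 0.981).

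The brighter Kcnn4 probe set, 1435945_a_at, gave effects of the same size that missed the threshold in the main fit and passed in some other settings. It averaged 5.74 ± 0.19 in BALB CF and 5.39 ± 0.30 in BALB control lungs (SD, n = 6 each), and 5.99 ± 0.11 in B6 CF (n = 5) and 5.62 ± 0.18 in B6 control lungs (n = 6). The difference was 0.35 in BALB (SE 0.10, interval 0.13 to 0.57, limma adjusted p = 0.0565) and 0.36 in B6 (SE 0.11, interval 0.13 to 0.59, adjusted p = 0.0679). BALB control male 3 read 5.79, the highest of the BALB controls, and without it the BALB difference was 0.48 (adjusted p = 0.000792). Without the arrays high in intestinal markers the B6 difference passed (0.36, adjusted p = 0.018) and the BALB difference was 0.15 (adjusted p = 0.592). With probe sets at or above the median level only, the brighter one passed in BALB (limma adjusted p = 0.0404) and in B6 (adjusted p = 0.0497). It also passed with a replicate block in BALB (0.35, adjusted p = 0.0476) and in B6 (0.38, adjusted p = 0.0469). When B6 was fitted alone, it passed there (0.36, adjusted p = 0.0139). The mean of both probe sets passed in BALB (0.36, adjusted p = 0.0214) and in B6 (0.35, adjusted p = 0.0282). The probe sets correlated at r = 0.84 over the 23 arrays.

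The calls of the dimmer Kcnn4 probe set depended on single arrays. In B6 it did not pass without CF female 2, CF female 3, CF male 1, control female 1, control male 2 or control male 3 (adjusted p between 0.0549 and 0.156, the highest without CF male 1). In BALB it did not pass without control male 1 (0.32, adjusted p = 0.0518). Without the arrays high in intestinal markers it gave 0.22 in BALB (adjusted p = 0.406), and without the B6 controls high in squamous markers it gave 0.28 in B6 (adjusted p = 0.128). In males alone it gave 0.24 in BALB (adjusted p = 0.391) and 0.26 in B6 (adjusted p = 0.294).

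Some leukocyte markers also rose in CF lungs, and others were not called. Their correlation with Kcnn4 over the arrays was not computed. Of 6 T cell markers, 2 rose in BALB CF lungs and 5 in B6 CF lungs, and all 4 neutrophil markers rose in both strains. B cell markers rose in BALB (4 of 4) and 0 of 4 were called in B6 (limma, 1 at an unadjusted p under 0.05). Alveolar macrophage markers were called for 0 of 5 in BALB and 1 of 5 in B6, with 2 at an unadjusted p under 0.05 in each. The mean T cell marker level was 5.40 to 5.96 on BALB CF arrays and 4.84 to 5.83 on BALB control arrays, and 5.63 to 6.07 on B6 CF and 4.79 to 5.37 on B6 control arrays. The neutrophil level was 8.12 to 8.90 on BALB CF and 6.76 to 7.82 on BALB control arrays, and 8.07 to 8.97 on B6 CF and 6.50 to 8.40 on B6 control arrays. The alveolar macrophage level was 6.81 to 7.28 on BALB CF and 6.60 to 7.07 on BALB control arrays, and 7.81 to 8.63 on B6 CF and 7.57 to 8.08 on B6 control arrays. BALB control male 3, high in Kcnn4, had the highest T cell level (5.83) and neutrophil level (7.82) of the BALB controls. The part of these cells in the Kcnn4 result was not tested.

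**Figure D3:**
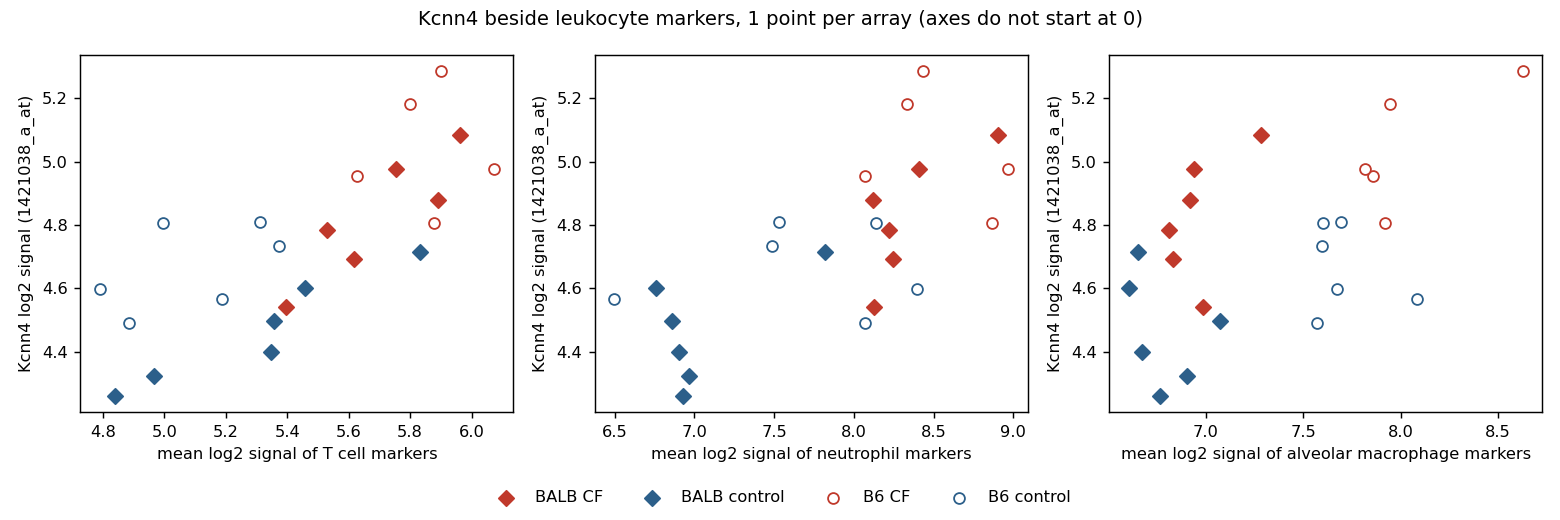
Log2 signal of the dimmer Kcnn4 probe set against the mean level of the T cell, neutrophil and alveolar macrophage markers, 1 point per array, with filled diamonds for BALB, open circles for B6, red for CF and blue for control. CF arrays mostly sit high both in Kcnn4 and in the T cell and neutrophil levels, 3 B6 control arrays share the CF range of neutrophil levels, and the control array of BALB with Kcnn4 at 4.71 has a T cell level of 5.83.

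The window before the start of Kcnn4, on the plus strand at chr7:24370013-24370262 (GRCm38.p6), is shown as that of the gene of the set that rose in both strains. It holds 58.8% G and C, and the capitals mark its 1 GC box, read on the other strand.
Kcnn4: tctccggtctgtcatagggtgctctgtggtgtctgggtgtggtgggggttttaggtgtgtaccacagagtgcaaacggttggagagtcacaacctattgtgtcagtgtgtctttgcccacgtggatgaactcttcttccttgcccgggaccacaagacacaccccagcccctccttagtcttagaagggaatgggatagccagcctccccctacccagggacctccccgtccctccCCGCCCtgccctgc
The GC box lies 14 to 9 bases before the start, and no TATA box was in the window.

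Kcnq1 encodes a voltage-gated potassium channel that, with a Kcne subunit, drives chloride secretion in airway and gut. Its probe set, 1449464_at, averaged 6.59 ± 0.07 in BALB CF and 6.76 ± 0.10 in BALB control lungs (SD, n = 6 each), and 6.62 ± 0.12 in B6 CF (n = 5) and 6.55 ± 0.15 in B6 control lungs (n = 6). The CF effects, -0.17 in BALB (SE 0.06, limma adjusted p = 0.133) and 0.06 in B6 (adjusted p = 0.722), were not called, nor was their difference (-0.23, adjusted p = 0.204).

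More of the set differed between the strains than between CF and control lungs, and the same was true of all probe sets. Of these, 18.2% (CF lungs) and 15.6% (control lungs) were called between the strains, against 4.71% (B6) and 4.92% (BALB) for CF. In CF lungs, BALB was higher than B6 for Slc12a2, Car2, Slc4a4 and the dimmer Ano1 probe set, and in control lungs for Slc4a4, Slc12a2 and Kcnq1. The strain comparison in CF lungs called 6 probe sets higher and 1 lower in BALB, 43.8% of the 16, where 18.2% of all probe sets were called (8.66% higher, 9.52% lower). In control lungs it called 4 higher and 0 lower, 25.0% of the 16 with 10 at an unadjusted limma p under 0.05, where 15.6% of all probe sets were called (7.46% higher, 8.12% lower). By brightest probe set, 3 of 8 genes were called in CF lungs (Slc12a2, Slc4a4 and Car2, all higher in BALB), where 19.7% of all genes were called, and 2 of 8 in control lungs (Slc4a4 and Kcnq1, both higher), where 18.2% were. The medians over the 8 genes were 0.02 in CF and 0.10 in control lungs, against 0.01 and 0.02 over all genes. These comparisons use the same arrays as the CF effects above and are not independent of them.

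Slc12a2 was higher in BALB by several probe sets. By 1448780_at it read 7.02, 7.21 and 7.42 (lowest, median and highest) on BALB CF arrays, against 6.67, 6.73, 6.79, 6.94 and 6.96 on B6 CF arrays. The groups did not overlap, and the difference was 0.40 (SE 0.08, limma adjusted p = 0.00049). Groups without overlap and higher in BALB made up 4.29% of all probe sets in CF lungs. In controls the same probe set read 6.97, 7.20 and 7.29 in BALB, against 6.86, 6.94 and 6.98 in B6, at a difference of 0.24 (SE 0.07, adjusted p = 0.0208) with overlap. The brightest probe set, 1417622_at, averaged 9.19 ± 0.09 in BALB CF (SD, n = 6) and 8.90 ± 0.10 in B6 CF lungs (n = 5). Its difference was 0.29 in CF lungs (SE 0.06, adjusted p = 0.00184) and 0.12 in controls (adjusted p = 0.182). The third, 1417623_at, gave 0.19 in CF lungs (adjusted p = 0.140) and 0.24 in controls (adjusted p = 0.0521). That control difference passed under quantile normalization (adjusted p = 0.0399), with probe sets at or above the median level only (adjusted p = 0.0380), with a variance trend (adjusted p = 0.0475) and without BALB control female 2 (0.28, adjusted p = 0.0230), BALB control male 3 (0.26, adjusted p = 0.0490) or B6 control female 2 (0.27, adjusted p = 0.0467). The calls in CF lungs passed without any of the 11 CF arrays in turn, and that of 1448780_at in controls passed in 8 of 12 such fits. The control difference of 1448780_at was 0.08 (adjusted p = 0.694) without the arrays high in intestinal markers, 0.21 (adjusted p = 0.1) without the B6 controls high in squamous markers and 0.25 (adjusted p = 0.137) in males alone.

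Car2 was higher in BALB among CF lungs, at 9.11, 9.18 and 9.54 (lowest, median and highest) in BALB CF, against 8.77, 8.98 and 9.07 in B6 CF, with no overlap. In CF lungs 4.29% of all probe sets were higher in BALB without overlap. The difference was 0.31 (SE 0.07, 1.24-fold, limma adjusted p = 0.00327), and it passed without any of the 11 CF arrays in turn. In males alone it was 0.21 (adjusted p = 0.273). Among controls the strains differed by 0.08 (adjusted p = 0.521). The B6 CF arrays enter both this comparison and the CF effect of Car2 in B6.

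The 5 probe sets of Slc4a4 disagreed between the strains. By 1426432_a_at, BALB control lungs read 5.46, 5.74 and 5.90 (lowest, median and highest), against 5.20, 5.28 and 5.41 in B6 control lungs, with no overlap, where groups without overlap and higher in BALB made up 3.33% of all probe sets. The difference was 0.44 (SE 0.07, 1.35-fold, limma adjusted p = 1.03e-04) in controls, where it passed without any of the 12 arrays in turn, and 0.31 in CF lungs (adjusted p = 0.00451, no overlap). In CF lungs 4.29% of all probe sets were higher in BALB without overlap. The brightest probe set, 1434096_at, gave 0.28 in controls (SE 0.09, adjusted p = 0.0434) and 0.32 in CF lungs (adjusted p = 0.0243), but passed in only 3 of 12 and 6 of 11 fits that left out an array. The mean over all 5 probe sets did not pass, at 0.12 in controls (adjusted p = 0.0968) and 0.10 in CF lungs (adjusted p = 0.195). By 1421225_a_at the sign was the other way, -0.23 in controls (adjusted p = 0.126) and -0.33 in CF lungs (adjusted p = 0.0312, no overlap, where 5.53% of all probe sets were lower in BALB without overlap), and it passed in 5 of 11 fits that left out an array. In males alone the calls in CF lungs were lost for 1434096_at (0.45, adjusted p = 0.0529), 1426432_a_at (0.35, adjusted p = 0.0501) and 1421225_a_at (-0.25, adjusted p = 0.375), and that in controls for 1434096_at (0.37, adjusted p = 0.0856). The other probe sets, 1452071_at and 1450169_at, were not called. The correlation of these probe sets with the brightest one over the 23 arrays ran from -0.65 to 0.58, and a name ending in _a_at marks a probe set for several transcripts of 1 gene.

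Kcnq1 was higher in BALB controls, at 6.62, 6.78 and 6.90 (lowest, median and highest), against 6.37, 6.56 and 6.76 in B6 controls. The groups overlapped, and the difference was 0.21 (SE 0.06, limma adjusted p = 0.0255), which passed in 7 of 12 fits that left out an array. In CF lungs it was -0.02 (adjusted p = 0.871). Without the arrays high in intestinal markers the control difference was 0.11 (adjusted p = 0.498) for Kcnq1 and 0.25 (adjusted p = 0.172) for the brightest probe set of Slc4a4. Without the B6 controls high in squamous markers it was 0.17 (adjusted p = 0.136) for Kcnq1 and 0.23 (adjusted p = 0.17) for Slc4a4. The remaining genes did not pass between the strains: Slc26a4 was at -0.34 in CF and -0.22 in control lungs, Clcn2 at -0.00 and 0.19, the brighter Kcnn4 probe set at -0.24 and -0.23, and the dimmer at -0.19 and -0.20. Without BALB control male 3, however, the control difference of Kcnn4 was -0.36 by the brighter (adjusted p = 0.00222) and -0.27 by the dimmer probe set (adjusted p = 0.0204), both called lower in BALB. By contrast, the dimmer Ano1 probe set differed by 0.26 in CF lungs (adjusted p = 0.000859, no overlap) and by -0.05 in controls (adjusted p = 0.613). In CF lungs 4.29% of all probe sets were higher in BALB without overlap.

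Markers of other cells differed between the strains as well. All 7 ciliated cell markers were lower in BALB, both in CF lungs (mean level 6.35 to 6.83 in BALB CF, 7.19 to 7.48 in B6 CF) and in controls (6.61 to 6.80 in BALB, 7.12 to 7.65 in B6). Club cell markers were lower in BALB for 4 of 6 in CF lungs, without overlap of the mean levels (10.98 to 11.29 in BALB CF, 11.46 to 11.64 in B6 CF), and for 3 of 6 in controls (10.91 to 11.23 in BALB, 11.35 to 11.56 in B6). Alveolar macrophage markers were lower in BALB for 3 of 5 in both comparisons, at the levels given with Kcnn4, which did not overlap between the strains. Of 5 endothelial markers, 3 were higher in BALB in both comparisons. Intestinal markers were higher in BALB controls than in B6 controls for 5 of 7, with mean levels of 4.78 to 6.56 and 4.05 to 6.06, and 4 of 7 were lower in BALB CF than in BALB control lungs, at 4.02 to 5.35 on the CF arrays. The part of these cells in the strain differences of the anion secretion genes was not tested.

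**Figure D4:**
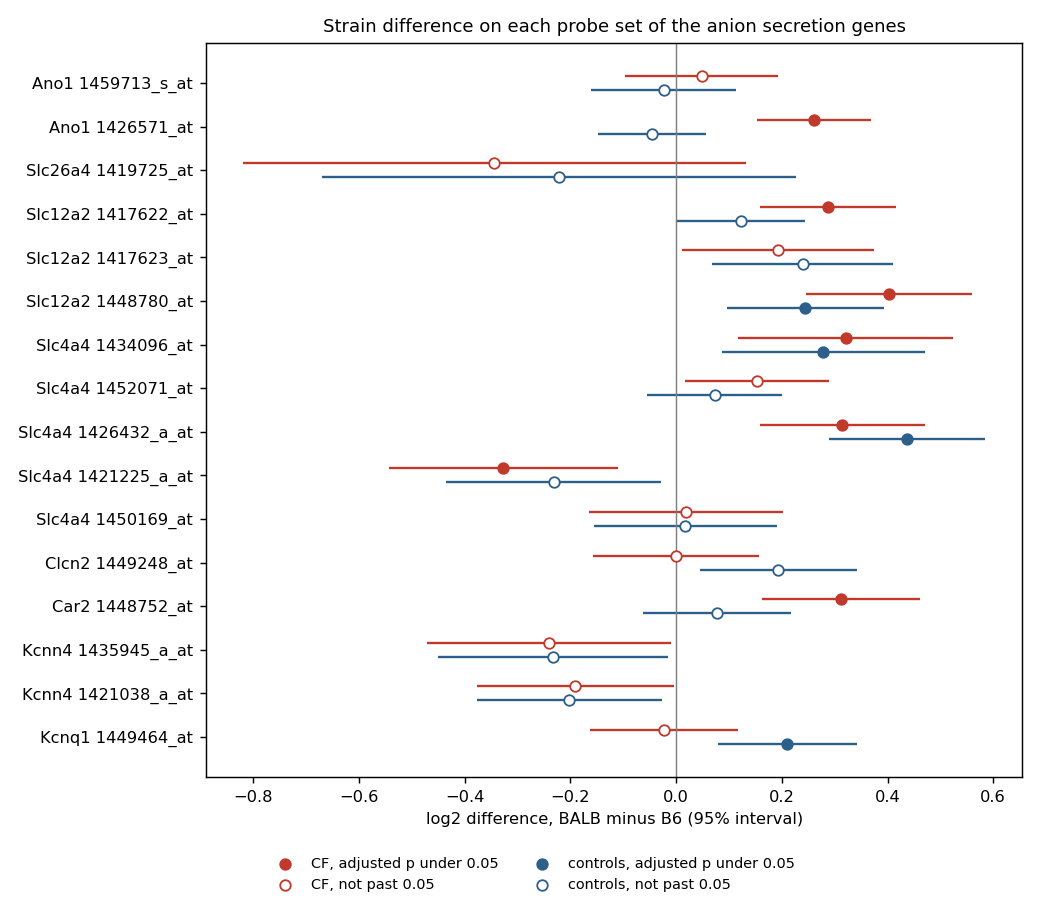
BALB minus B6 difference of log2 signal for the 16 probe sets, with 95% intervals of the limma fit, in CF lungs (red) and control lungs (blue); filled symbols passed an adjusted p of 0.05. Most called probe sets lie right of 0 (higher in BALB), and the Slc4a4 probe sets lie on both sides of 0.

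Other genes of anion secretion were read from 6 lists of 80 genes, 74 of them with a probe set of 1 symbol. For CF, 2 rose and 2 fell in BALB, and 2 rose and 2 fell in B6, which is 5.41% in each and close to the 5.53% and 5.43% of all genes. Among the genes called for CF, the largest effects were in the potassium channel list (13 genes). Kcne4, a subunit that damps Kcnq1 currents, rose in B6 CF lungs (0.55, SE 0.09, limma adjusted p = 0.000996). Kcnk5, a potassium channel of bicarbonate-transporting epithelia, fell in BALB CF lungs (-0.76, SE 0.10, adjusted p = 0.000195). Both effects differed between the strains, by -0.73 for Kcne4 (adjusted p = 0.00317) and -0.85 for Kcnk5 (BALB minus B6, adjusted p = 0.00431). In that comparison 0 of the 74 genes were called higher and 3 lower, where 2.23% of all genes were called. Kcnk5 was also higher in BALB than in B6 control lungs (0.72, adjusted p = 2.69e-05), and these comparisons share the BALB controls. In males alone the Kcne4 effect in B6 was 1.04 (limma adjusted p = 0.00011) and its strain difference -1.67, more than 1.5 times the values over both sexes. Those values are means of the female and male effects. The rise and its strain difference therefore came mainly from males, with 2 B6 CF arrays. With sex as an additive term Kcne4 did not pass in B6 (0.50, adjusted p = 0.116), nor did its strain difference (-0.67, adjusted p = 0.147).

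The chloride channel list (12 genes) had 1 gene higher and 1 lower in BALB CF lungs, and 0 called in B6 (limma, 0 at an unadjusted p under 0.05). Lrrc8a, a subunit of the volume-regulated anion channel, fell in BALB (-0.27, limma adjusted p = 0.00807), and its CF effects differed between the strains by -0.36 (adjusted p = 0.0242). Ano9, a relative of Ano1, rose in BALB (0.32, adjusted p = 0.0121). Without the arrays high in intestinal markers Lrrc8a was at -0.14 (adjusted p = 0.404) and Ano9 at 0.41 (adjusted p = 0.111) in BALB, and the strain difference of Lrrc8a was -0.26 (adjusted p = 0.163). In males alone Ano9 was at 0.10 (adjusted p = 0.729) and Lrrc8a at -0.23 (adjusted p = 0.186) in BALB, and the strain difference of Lrrc8a was -0.31 (adjusted p = 0.213). Among anion exchangers and proton transporters, 0 of 17 measured genes were called for CF, with 3 in BALB and 2 in B6 at an unadjusted limma p under 0.05. Among 14 receptors and messengers, the nucleotide receptor P2ry6 rose in BALB (0.39, adjusted p = 0.0113; 0.37 with adjusted p = 0.224 without the arrays high in intestinal markers, 0.44 with adjusted p = 0.0753 in males alone) and the calcium release channel Itpr3 rose in B6 (0.23, adjusted p = 0.0351). Of 8 loading genes, the sodium pump subunit Atp1b3 fell in B6 (-0.21, limma adjusted p = 0.0227). Of 10 genes of the carbonic anhydrase family, Car8 fell in B6 (-0.31, limma adjusted p = 0.0325). Itpr3, Atp1b3 and Car8 lost their calls in 10, 2 and 8 of the 11 fits that left out a B6 array, and without the B6 controls high in squamous markers (0.21, -0.19 and -0.29, adjusted p = 0.118, 0.0812 and 0.1). In males alone Atp1b3 (-0.21) and Car8 (-0.38) were not called, and Itpr3 was at 0.39 (adjusted p = 0.014).

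Between the strains, 3 of the 74 genes were higher and 10 lower in BALB CF lungs (17.6%), and 7 were higher and 7 lower in BALB controls (18.9%), close to the 19.7% and 18.2% of all genes. The calcium-activated chloride channel Best1 was lower in BALB, by -0.88 in CF (limma adjusted p = 1.83e-07) and -0.99 in control lungs (adjusted p = 1.19e-08). The membrane-bound carbonic anhydrases Car4 and Car14 differed in opposite directions. Car4 was higher in BALB (0.36 in CF and 0.54 in control lungs, adjusted p = 0.000131 and 3.15e-07) and Car14 was lower (-0.77 and -0.53, adjusted p = 4.48e-08 and 3.96e-06). The receptor subunits for interleukins of allergic inflammation did too, with Il4ra higher in BALB (0.43 and 0.26) and Il13ra1 lower (-0.43 and -0.44), all of them called over both sexes. Among potassium channels, Kcnk2 (-0.41 and -0.33) and Kcnj15 (-0.53 and -0.49) were lower in BALB in both comparisons, and Kcne4 was lower in CF lungs (-0.65). The other called genes named were higher in BALB controls for Ano10 (0.30), Lrrc8a (0.19), Oxsr1 (0.20) and Vipr1 (0.25) and lower for Car8 (-0.29). In CF lungs they were higher in BALB for Ano9 (0.24) and lower for Slc26a11 (-0.29), Car5b (-0.40), Clcn3 (-0.17) and Atp1b1 (-0.37). In males alone, Kcnj15 (-0.16), Ano9 (0.14), Clcn3 (-0.01), Atp1b1 (-0.20), Il4ra (0.34) and Il13ra1 (-0.29) were not called in CF lungs, nor were Il4ra (0.09), Lrrc8a (0.12), Oxsr1 (0.07), Car8 (-0.20) and Vipr1 (0.21) in controls. Without the arrays high in intestinal markers, the calls in controls were lost for Il4ra (0.12), Il13ra1 (-0.37), Car8 (-0.26), Ano10 (0.25), Lrrc8a (0.10), Oxsr1 (0.18) and Vipr1 (0.33), with adjusted p between 0.0713 and 0.472, and in CF lungs for Ano9 (0.23) and Clcn3 (-0.15). Without the B6 controls high in squamous markers they were lost for Il4ra (0.17), Car8 (-0.27) and Vipr1 (0.26). Most fits that left out 1 array ended the calls of Vipr1 in controls and of Ano9 and Clcn3 in CF lungs. Some such fits ended those of Il4ra and Lrrc8a in controls and of Car5b, Atp1b1 and Kcnj15 in CF lungs. Ano9 and Clcn3 also lost their calls under quantile normalization (limma adjusted p = 0.0781 and 0.0830) and with sex as an additive term (0.0578 and 0.0634).

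Sex gave no call among the anion secretion genes. In controls, 0 of 16 probe sets differed between females and males (limma, 4 at an unadjusted p under 0.05), where 2.43% of all probe sets were called, and the median over the 8 genes was 0.12 against 0.00 over all genes. The brighter Kcnn4 probe set was at 0.23 (female minus male, limma adjusted p = 0.277), and without BALB control male 3 it was at 0.36 and passed (adjusted p = 0.0135). The brightest Slc4a4 probe set was at 0.20 and Kcnq1 at 0.14, neither of them called. Of the 74 genes of the lists 1 was called higher and 1 lower, where 3.42% of all genes were called: the sulfate transporter Slc26a2 was higher in females (0.37, adjusted p = 0.00609) and Kcnj15 was lower (-0.49, adjusted p = 0.0497). Kcnj15 lost its call in 10 of 12 fits that left out a control array, without the B6 controls high in squamous markers (-0.53, adjusted p = 0.0679) and without the arrays high in intestinal markers (-0.34, adjusted p = 0.387). Without the arrays high in intestinal markers Slc26a2 lost its call too (0.32, adjusted p = 0.149). Within a sex and strain, 0 of 16 probe sets were called for CF (limma, with 7 in BALB females, 1 in BALB males, 5 in B6 females and 4 in B6 males at an unadjusted p under 0.05), where 1.19%, 1.93%, 0.815% and 6.24% of all probe sets were called. The CF effect differed between the sexes for 0 of 16 probe sets in BALB and 0 of 16 in B6. In each, 0 were at an unadjusted limma p under 0.05, where 0.0178% and 1.75% of all probe sets were called. Of the 74 genes of the lists, this sex difference (female minus male) was called for 1 higher and 1 lower in B6, and for 0 in BALB.

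The genes most like Ano1, Slc4a4 and Kcnq1 over the arrays were listed as a description, after the mean of each strain and sex was removed. Among 19815 probe sets of other genes at or above the median level, the brighter Ano1 probe set correlated most with Cadm1 (r = 0.889), Ptprf (0.881) and Spock2 (0.879) over 23 arrays. The brightest Slc4a4 probe set correlated most with Dab2 (0.823), Smc6 (0.817) and Atxn7l1 (0.815). Kcnq1 correlated most with Morn2 (0.902), Elob (0.879) and Zfp771 (0.856). The probe sets of a pair were read from the same RNA of each array, with its cell make-up, and differences between CF and control lungs were left in.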

How the data were processed

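Biotin-labelled total RNA of whole right lung was hybridised to 23 arrays of 8 groups, per the labels. The deposited table holds signals taken here to be log2 (continuous, 1.79 to 13.82). How the authors summarised and normalized the probes is not given in the sources used here. Columns were matched to samples by the sample identifier that heads each column, and the titles gave group and replicate. No columns held identical values (0 pairs). The number of arrays limits the precision.

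After leaving out 64 control probe sets, 45037 were fitted with limma 3.58.1 (lmFit, eBayes; R 4.3.3) with a mean per group, 15 residual and 5.81 prior degrees of freedom, in 12 comparisons, 6 of them main ones. Benjamini-Hochberg adjustment ran over all probe sets of a comparison. The script was tested on simulated data. Symbols came from the platform annotation: 34945 probe sets had 1 symbol, 932 several and 9160 none, and genes were named from 1 symbol only. Of the 9 genes, all were found in the RefSeq gene table of GRCm38.p6.

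Members and lists were chosen with earlier results of these data known. All members were named. From each list and main comparison, up to 3 called genes of lowest adjusted p were named. For likeness, the 3 genes of highest Pearson correlation were named for each member whose brightest probe set passed in a CF effect or in the strain comparison of controls. Markers of other tissues were read as mean levels per array. Alternatives changed the normalization, a filter on dim probe sets, the variance trend, the samples in the fit, the sex term, a replicate block, the probe set used and each array in turn. After the data were seen, fits with the brightest probe set of each gene only, without the B6 controls high in squamous markers, and without the arrays high in intestinal markers were added. The values in males alone were also added as a setting. They are male comparisons within the fit of all 23 arrays, so the females share in the estimate of the spread. For CF they were among the 12 comparisons.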

Additional observations from a re-analysis of the deposited data

Results flagged for a closer look

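Among 64 groups of 5 or 6 arrays of a member probe set, 5 held an array far from the others, and chance gives about 1 in 20. Slc26a4 read 6.63 on B6 CF female 3, against 4.64 to 5.10 on the other B6 CF arrays. The Slc4a4 probe set 1421225_a_at read 4.68 on the same array, against 4.39 to 4.47. The Slc4a4 probe set 1434096_at read 5.83 on BALB CF female 1, against 6.19 to 6.39 on the other BALB CF arrays. For Slc12a2, 1417623_at read 6.73 on B6 CF female 2, against 7.09 to 7.20, and 1417622_at read 8.78 on B6 control female 1, against 8.96 to 9.07.

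The CF effects of the strains differed by the test of the difference itself (limma, BALB minus B6) for 4 genes named. For the Ano1 probe set 1426571_at the difference was 0.31 (SE 0.07, adjusted p = 0.0238), against 0.07 by the other Ano1 probe set. For Kcnk5 it was -0.85 (adjusted p = 0.00431), for Kcne4 -0.73 (adjusted p = 0.00317) and for Lrrc8a -0.36 (adjusted p = 0.0242). The Kcne4 difference came mainly from the males, and its call was lost with sex as an additive term (-0.67, limma adjusted p = 0.147). The Lrrc8a call was lost without the arrays high in intestinal markers (-0.26, adjusted p = 0.163), in males alone (-0.31, adjusted p = 0.213), and without B6 control female 3 (adjusted p = 0.0505) or B6 CF male 2 (adjusted p = 0.0566).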

How the results depend on the processing

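Of 2158 values of member probe sets under alternatives, 2060 kept their direction and side of the threshold or changed sign while passing under neither setting (117 of them), 61 lost a call, 37 gained one and 0 reversed. Of 846 values of the named list genes, 714 kept both, 132 lost the call and 0 reversed. The genes of the set called for CF by brightest probe set were 1 in B6 and 0 in BALB. In B6 they became 2 under quantile normalization, a variance trend, a fit of the strain alone and the brightest probe sets only, 3 with probe sets at or above the median level, the mean of a gene's probe sets or without the arrays high in intestinal markers, and 0 in males alone. In BALB they became 1 under the variance trend, the fit of the strain alone, the mean of a gene's probe sets and the brightest probe sets only, and 2 with probe sets at or above the median. Pairing by replicate number was not seen between CF and control arrays of the same strain and sex (correlations of same-numbered deviations from -0.168 to 0.066). Pairing across sexes or strains was not looked at. With the replicate block 2 genes were called in B6 and 1 in BALB. The strain comparison of controls, with 2 genes called, gave 1 with sex as an additive term, 1 in males alone and 0 without the arrays high in squamous or in intestinal markers, and that of CF lungs, with 3, gave 1 in males alone. The share of all features called for CF in B6 (4.71%) was 9.31% with probe sets at or above the median and 2.38% with additive sex. In BALB (4.92%) it was 10.1% with probe sets at or above the median, 3.12% in BALB fitted alone, 1.93% in males and 1.04% without the arrays high in intestinal markers. The share for the difference of the CF effects was 5.01% with probe sets at or above the median and 1.68% with additive sex. For the strains in controls it was 25% with the filter on level, 9.45% in males and 10.4% without the arrays high in intestinal markers, and in CF lungs 28.2% with that filter and 10.5% in males. For sex in controls it was 6.31% with that filter, 4.01% with the mean of a gene's probe sets, 4.71% with the brightest only and 0.784% without the arrays high in intestinal markers. Leaving out 1 array at a time gave 0 to 3 genes and 1.89% to 5.17% for CF in B6, 0 to 2 and 3.04% to 6.33% in BALB, 0 to 0 and 1.31% to 3.48% for their difference, 2 to 3 and 13.8% to 17.6% for the strains in CF lungs, 0 to 2 and 13.1% to 15.8% in controls, and 0 to 1 and 1.06% to 3.93% for sex. The cause of these changes was not tested. The squamous, intestinal, males-only and brightest-only settings were chosen after seeing the data. Clcn2 and the Slc4a4 probe sets 1421225_a_at and 1450169_at lay below the median level, where small differences are least well measured.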
